A study of Mus musculus with 12 samples.

Results

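A set of 10 heat shock genes of the mouse were followed across 4 groups of B cells. Hspa1a, Hspa1b, Hspa8, Hsph1, Dnajb1 and Hsp90aa1 encode chaperones that work in the cytosol and nucleus. Hspe1, Hspd1 and Hspa9 encode chaperones that work in the mitochondrial matrix, and Hsf1 encodes a transcription factor of heat shock genes. The 10 genes were taken by their symbols, a choice made with earlier results of these data known. They are 10 of the 27179 genes in the deposited count table. Each was found under its Entrez gene number, and all 10 passed the filter on low counts that left 13592 genes for testing.

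RNA came from mature bone marrow B cells of C57BL/6 mice, sorted for high B220 and surface IgM without CD93, with 3 libraries per group, which the series design calls biological replicates, and 12 in all. The first group, old wild type, came from mice of 98, 99 and 100 weeks. The apoptosis-resistant group had the genotype Bak-/- BaxD/D and an age of 10 weeks. The apoptosis-sensitive group had the genotype Bak-/- Baxfl/fl at the same age of 10 weeks. The last group, young wild type, was 9, 10 and 11 weeks old. Both Bak-deficient groups thus lack Bak (the gene Bak1), and they differ in Bax, which carries loxP sites in the sensitive cells and is deleted in the resistant cells. BAX and BAK are the pore-forming proteins that open the outer mitochondrial membrane in apoptosis, and a cell without both resists that form of death. The labels do not give the Cre line or promoter that deleted Bax. Libraries with the same replicate number share a collection date within the wild-type groups (24 March, 11 April and 12 April) and within the Bak-deficient groups (30 May, 31 May and 7 May), and no date is shared between wild-type and Bak-deficient groups.

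Chaperones of the HSP70 family bind exposed hydrophobic stretches of unfolded proteins in a cycle of ATP binding and hydrolysis. J-domain proteins such as DNAJB1 deliver clients and start hydrolysis, and nucleotide exchange factors such as HSPH1 reset the cycle. HSP90 takes over partly folded kinases and receptors, and in mitochondria HSPA9 pulls in and folds imported chains while the HSPD1 chamber with its HSPE1 lid encloses them. HSF1 is held inactive in unstressed cells. On stress it forms trimers that bind heat shock elements, inverted repeats of GAA, in the promoters of heat shock genes. It is regulated mostly as a protein, so its own mRNA need not follow its activity.

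The libraries held between 13474162 and 23539764 counts, and between 15253 and 17245 genes with at least 1 count. The 10 genes together took 0.0630 ± 0.0137% of the counts in old, 0.0831 ± 0.0029% in resistant, 0.141 ± 0.018% in sensitive and 0.0933 ± 0.0233% in young libraries (SD, n = 3 each). Levels below are CPM, a gene's counts relative to its library's total on the usual scale after TMM scaling, and a fold change is on the log2 scale ± SE. Bax averaged 6.58 ± 1.70 CPM in resistant and 70.7 ± 25.5 CPM in sensitive cells. Bak1 averaged 10.7 ± 3.72 CPM in resistant and 9.43 ± 3.15 CPM in sensitive cells, against 35.5 ± 10.4 CPM in old and 40.1 ± 8.10 CPM in young wild-type cells, so both targeted genes followed the labels. Ptprc (the gene of B220) and Ighm, which the sort selected for, were abundant in every group, and Cd93, which the sort selected against, averaged 12.1 CPM in old, 18.0 CPM in resistant, 32.2 CPM in sensitive and 32.4 CPM in young libraries. The pair of libraries collected on 24 March, old replicate 1 and young replicate 1, stood apart from the other 10 on the first principal component, which held 31.9% of the variance. Sensitive replicate 3 stood apart by its immediate early genes, the rapid transcriptional responders to stimulation and stress. The summed level of 23 such genes was 16880 CPM there, 6676 CPM in resistant replicate 3, 6628 CPM in young replicate 1, and between 3030 and 4003 CPM in the other 9 libraries. In bulk RNA, fewer expressing cells and less RNA per cell cannot be told apart.

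Most of the 10 genes had a lower group mean in old than in young cells and in resistant than in sensitive cells, but none passed the adjusted threshold of 0.05 in edgeR's test by group. With age 9 of 10 log2 fold changes were below 0, with a median of -0.78, where 54.3% of all genes tested were below 0 and their median was -0.03. In resistant over sensitive cells 8 of 10 were below 0, with a median of -0.85, where 52.7% of all genes were below 0 and their median was -0.02. Of the 10 genes, 0 were called with age, where 2.01% of all genes were called, and 0 were called between resistant and sensitive cells, where 0.0441% were. At an unadjusted p under 0.05, 6 of the 10 were lower in old cells, against 3.52% of all genes, and 6 were lower in resistant cells, against 2.97% of all genes. DESeq2, which called 5.16% of all genes with age and 0.944% between resistant and sensitive cells, called 2 members with age, Hspa1b and Hsph1, and 1 between resistant and sensitive cells, Hspa1b.

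Because same-numbered libraries were collected on the same day, the date was also fitted as a block. With it 3 of the 10 genes fell with age (Hspe1, Hspa8 and Hsph1), where 7.03% of all genes fell, and 3 fell in resistant cells (Hspe1, Hspd1 and Hspa8), where 1.97% of all genes fell. No member rose under the block. Of the 10 genes, 2 (Hspa8 and Hsph1) were lower in every old library than in every young one, where 6.96% of all genes were. In every resistant library 4 of them (Hspd1, Hspa8, Hsp90aa1 and Dnajb1) were lower than in every sensitive one, where 8.31% of all genes were. Date by date, 5 of the 10 were lower in the old library on all 3 dates, where 25.2% of all genes were. In the resistant library 6 were lower on all 3 dates, where 23.2% were. The age difference was uneven: the median of the 10 in log2 CPM was -1.51 on 24 March, -0.12 on 11 April and -0.86 on 12 April. Between resistant and sensitive libraries it was -0.74 on 30 May, -0.46 on 31 May and -0.78 on 7 May. The median of all genes lay between -0.06 and 0.01 on every date.

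**Figure D1:**
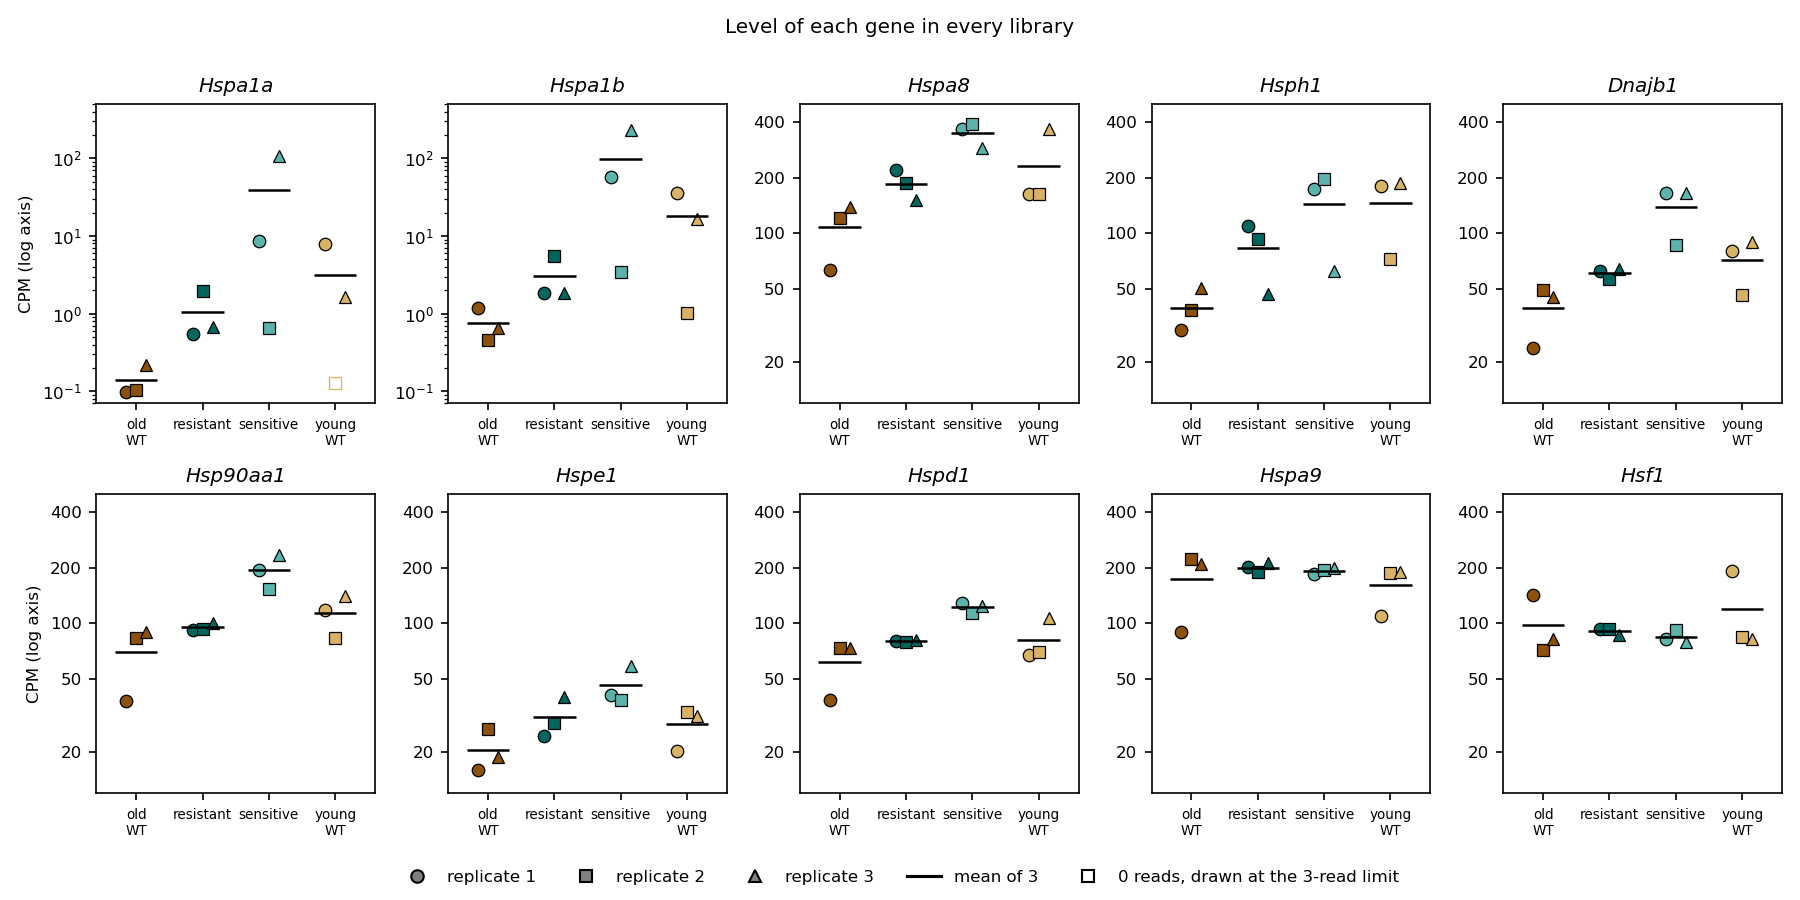
Level of each of the 10 genes in every library, in CPM on a log axis, for old wild type, apoptosis-resistant, apoptosis-sensitive and young wild type. Symbols mark the replicate number and lines the mean of 3 libraries; Hspa1a and Hspa1b span a far wider range than the other 8 genes, and the 2 circles of the wild-type groups are low for Hspa9 and high for Hsf1.

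Hspa1a and Hspa1b encode near-identical stress-inducible HSP70 proteins and were the least abundant and most variable of the 10. They lie on chromosome 17 of GRCm38, Hspa1a at 34969359-34972156 and Hspa1b at 34956429-34959238, both on the minus strand, 7927802 bases from Bak1 in the case of Hspa1b. How reads that match both genes were divided is not given in the sources used here, so each gene's own count is uncertain. Hspa1b had 1.17, 0.461 and 0.645 CPM in old, 1.86, 5.52 and 1.82 CPM in resistant, 56.7, 3.47 and 231 CPM in sensitive, and 35.9, 1.03 and 16.7 CPM in young libraries. Sensitive replicates 1 and 3 and young replicates 1 and 3 were high, while replicate 2 of both groups lay close to the old and resistant libraries. The log2 fold change was -4.52 ± 1.44 between old and young cells (edgeR adjusted p = 0.170) and -4.98 ± 1.38 between resistant and sensitive cells (0.395), and neither passed. DESeq2 gave adjusted p values of 0.0128 and 0.0180 for the same comparisons, and the date block gave 0.254 and 0.376.

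Hspa1a had 0.0979, 0.102 and 0.215 CPM in old, 0.552, 1.94 and 0.669 CPM in resistant, 8.68, 0.647 and 108 CPM in sensitive, and 7.89, 0 and 1.65 CPM in young libraries. The old libraries held only 2, 2 and 4 reads of it, and young replicate 2 held 0, which allows a level of up to 0.128 CPM (3 counts in that library, counting error only). Sensitive replicates 1 and 3 and young replicate 1 were high, as for Hspa1b, but young replicate 3 lay below resistant replicate 2. The groups overlapped in both comparisons. Its log2 fold change was -4.41 ± 1.99 with age (edgeR adjusted p = 0.422) and -5.21 ± 1.67 between resistant and sensitive cells (0.547). One library weighed on these values: without sensitive replicate 3 the difference between resistant and sensitive cells was -2.13 for Hspa1a and -3.28 for Hspa1b, and without young replicate 1 the age difference was -2.36 for Hspa1a and -3.48 for Hspa1b. Sensitive replicate 3 was also the library with the highest immediate early sum, with 1532 CPM of Fos and 1284 CPM of Jun, and the part of this in the HSP70 values was not tested. Hspa1a made up between 0% and 31.8% of the reads of the pair, the upper end in sensitive replicate 3 (2301 of 7231 reads, exact 95% binomial interval 30.7 to 32.9%) and the next highest in resistant replicate 3 (26.9%, interval 15.6 to 41.0%).

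The starts of the pair are nearly the same sequence. Over the 300 bases from 250 before to 50 after the RefSeq transcript start (GRCm38.p6) they differ at 4 bases. Both hold 1 exact match to a heat shock element of 2 units, GAANNTTC, beginning 104 bases before the start. Elements with mismatched letters were not searched for. The match is in capitals in the Hspa1b promoter at chr17:34959189-34959488 on the minus strand.
Hspa1b: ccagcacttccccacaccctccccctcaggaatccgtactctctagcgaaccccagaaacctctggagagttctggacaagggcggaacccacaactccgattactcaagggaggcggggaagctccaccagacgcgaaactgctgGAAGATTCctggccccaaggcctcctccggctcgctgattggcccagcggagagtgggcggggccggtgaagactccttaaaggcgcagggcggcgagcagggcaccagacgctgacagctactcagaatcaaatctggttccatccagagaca

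Hspa8, the constitutive cytosolic HSP70, was the most abundant of the 10 per length, with a median over the 12 libraries of 73.1 CPM per kilobase of exon. Its level was 63.0, 121 and 139 CPM in old, 218, 186 and 150.5 CPM in resistant, 364, 392 and 289 CPM in sensitive, and 163.7, 162 and 367 CPM in young libraries. All old libraries lay below all young ones, and all resistant libraries below all sensitive ones; young replicate 3 was as high as the sensitive libraries. The means were 108 ± 39.8 CPM in old and 231 ± 118 CPM in young cells, and 185 ± 34.0 CPM in resistant and 348 ± 53.4 CPM in sensitive cells (SD, n = 3 each). By group the log2 fold changes were -1.10 ± 0.36 with age (edgeR adjusted p = 0.184) and -0.91 ± 0.36 between resistant and sensitive cells (0.848). The age value rested in part on young replicate 3, without which it was -0.60. With the date as a block they were -1.07 ± 0.18 (0.00677) and -0.92 ± 0.18 (0.0306), and both passed. The difference in log2 CPM on the 3 dates was -1.38, -0.42 and -1.40 between old and young libraries and -0.74, -1.07 and -0.94 between resistant and sensitive libraries. The gene holds 3 small nucleolar RNA genes within its span (chr9:40801276-40805202), and how reads overlapping them were counted is not given.

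Hsph1, the HSP110 that exchanges nucleotide on HSP70, had the lowest adjusted p of the 10 with age. It had 29.8, 38.3 and 50.6 CPM in old, 109, 93.5 and 46.8 CPM in resistant, 174, 197 and 62.4 CPM in sensitive, and 180.2, 72.2 and 186 CPM in young libraries. Every old library lay below every young one, and replicate 3 was the lowest of both Bak-deficient groups, so these overlapped. The log2 fold change with age was -1.88 ± 0.48, with an edgeR adjusted p of 0.0749 by group, 0.0275 with the date block (-1.80 ± 0.34) and 0.00296 in DESeq2. Leaving out sensitive replicate 3, a library outside the age comparison, gave 0.0470 at a log2 fold change of -1.89. The change in resistant over sensitive cells was -0.80 ± 0.47 (0.99978 by group, 0.340 with the block), and -0.50 without resistant replicate 3 or without sensitive replicate 2.

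Windows were used for a pair of nearby transcript starts of Hsph1 on the minus strand of chromosome 5. The annotated gene begins further upstream, at 149636498, and no window was placed around that start. Of the pair, the window of the upstream start, chr5:149636287-149636586, holds a heat shock element of 3 units. It begins 36 bases after that transcript start, and a separate 2-unit element lies before it, both in capitals.
Hsph1: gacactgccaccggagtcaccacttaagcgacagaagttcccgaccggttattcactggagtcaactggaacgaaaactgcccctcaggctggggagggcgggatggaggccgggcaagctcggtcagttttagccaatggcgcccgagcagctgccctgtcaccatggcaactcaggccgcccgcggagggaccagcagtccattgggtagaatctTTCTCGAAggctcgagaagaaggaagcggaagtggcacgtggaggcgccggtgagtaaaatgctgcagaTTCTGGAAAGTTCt

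Dnajb1, the main J-domain partner of inducible HSP70, and Hsp90aa1, the inducible cytosolic HSP90, varied together. Dnajb1 had 23.9, 49.2 and 45.0 CPM in old, 62.3, 56.5 and 63.9 CPM in resistant, 165, 86.1 and 166 CPM in sensitive, and 79.9, 46.1 and 90.1 CPM in young libraries. Hsp90aa1 had 37.7, 83.1 and 89.7 CPM in old, 91.9, 92.8 and 100.2 CPM in resistant, 193, 153 and 233 CPM in sensitive, and 118, 83.0 and 140.3 CPM in young libraries. For both genes the 3 resistant libraries were close together and all below the sensitive ones, and the old and young libraries overlapped through young replicate 2. Between resistant and sensitive cells the log2 fold change was -1.19 ± 0.33 for Dnajb1 (edgeR adjusted p = 0.397) and -1.03 ± 0.30 for Hsp90aa1 (0.448). With age it was -0.87 ± 0.33 for Dnajb1 (0.293) and -0.70 ± 0.30 for Hsp90aa1 (0.392). Without both libraries of 24 March these age values were -0.52 for Dnajb1 and -0.37 for Hsp90aa1, and without old replicate 1 alone Hsp90aa1 was at -0.40. None of these 4 values passed with the date block either, where adjusted p lay between 0.182 and 0.222. The difference in log2 CPM between the old and young libraries of 11 April was 0.10 for Dnajb1 and 0.0020 for Hsp90aa1, and that between the libraries of 24 March was -1.73 and -1.64. Both RefSeq windows of Dnajb1 held no match to the 2-unit or 3-unit letters, and no window was used for Hsp90aa1.

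**Figure D2:**
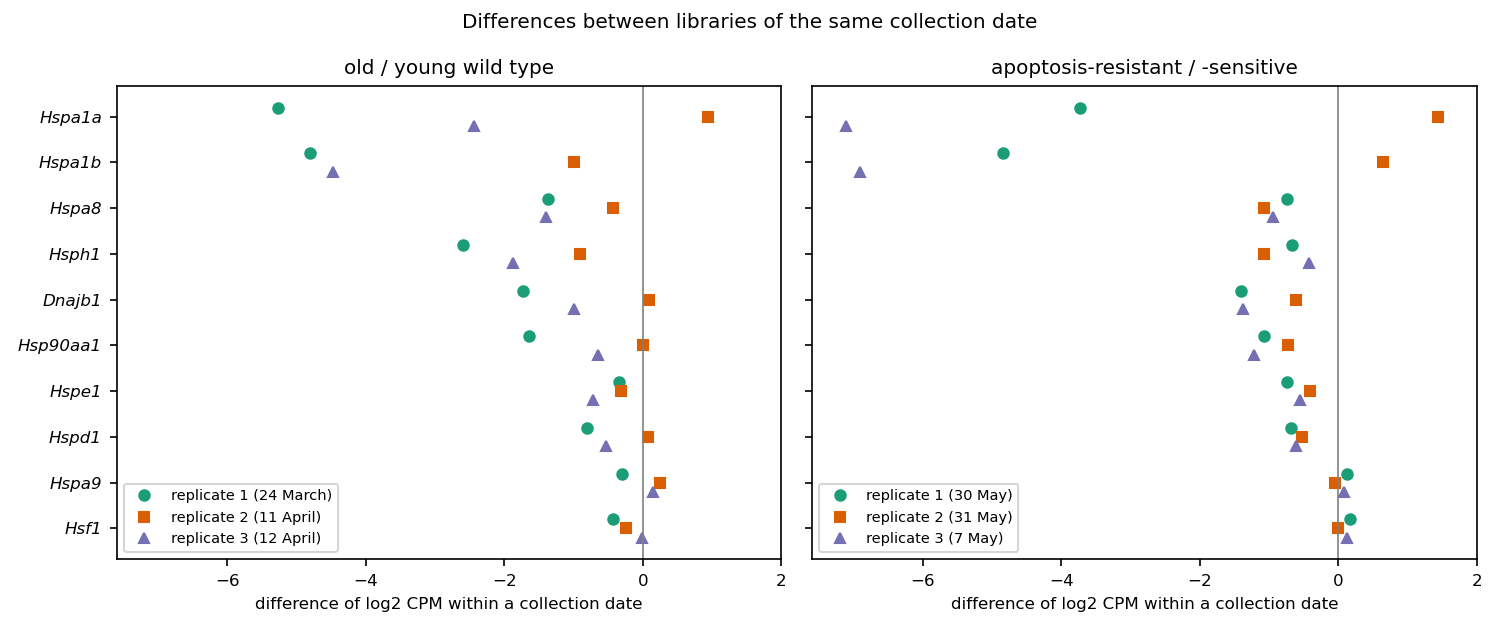
Difference in log2 CPM between the libraries of the same collection date, old minus young on the left and resistant minus sensitive on the right, for the 10 genes. Hspa8, Hsph1 and Hspe1 lie left of 0 on all 3 dates in both panels, while Hspa1a lies right of 0 on 11 April and 31 May.

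Hspe1 and Hspd1 encode the lid and the barrel of the mitochondrial chaperonin and stand head to head on chromosome 1. Hspe1 (55088148-55091317, plus strand) and Hspd1 (55077833-55088243, minus strand) overlap by 96 bases in the RefSeq annotation. Because a strand setting is not given, reads from that stretch could not be assigned with certainty. Hspe1 had 16.0, 26.6 and 19.0 CPM in old, 24.4, 28.8 and 40.0 CPM in resistant, 40.9, 38.3 and 58.9 CPM in sensitive, and 20.4, 33.1 and 31.4 CPM in young libraries. Hspd1 had 38.5, 73.0 and 73.3 CPM in old, 80.2, 79.0 and 80.8 CPM in resistant, 129, 113.5 and 124 CPM in sensitive, and 67.2, 69.6 and 106 CPM in young libraries. Sensitive libraries were the highest for both genes; for Hspd1 the resistant libraries lay between 79.0 and 80.8 CPM and below all sensitive ones, while for Hspe1 resistant replicate 3 reached the sensitive range. By group the fold change between resistant and sensitive cells was -0.57 ± 0.28 for Hspe1 (edgeR adjusted p = 0.99978) and -0.61 ± 0.25 for Hspd1 (0.897), and Hspe1 was at -0.33 without sensitive replicate 3. With the date block both passed, at -0.57 ± 0.12 (0.0233) and -0.61 ± 0.14 (0.0372). With age Hspe1 was -0.47 ± 0.28 by group (0.639) and fell by 0.46 ± 0.12 with the block (0.0249), and it was lower in the old library on each of the 3 dates. Hspd1 was -0.40 ± 0.25 by group (0.669) and -0.42 ± 0.14 with the block (0.0667), and was higher by 0.07 in the old library of 11 April. By group its age value was -0.15 without old replicate 1 and also without young replicate 3, and -0.26 without both libraries of 24 March. The ratio of Hspd1 to Hspe1 in reads per kilobase was 0.960 ± 0.244 in old, 0.856 ± 0.203 in resistant, 0.875 ± 0.178 in sensitive and 0.936 ± 0.230 in young cells (SD, n = 3 each), and all 4 groups overlapped.

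The shared start of the chaperonin genes carried the longest heat shock element found in the windows of the 6 members that could be searched. The Hspe1 window, chr1:55087898-55088197 on the plus strand, shares 285 bases with the Hspd1 window at chr1:55087883-55088182 on the other strand. Another Hspd1 window, chr1:55088194-55088493, spans the annotated Hspd1 gene start at 55088243. That one shares 4 bases with the Hspe1 window and holds 0 matches. The Hspe1 window holds an unbroken run of 4 alternating units of 18 bases that begins 89 bases before the Hspe1 start, here in capitals.
Hspe1: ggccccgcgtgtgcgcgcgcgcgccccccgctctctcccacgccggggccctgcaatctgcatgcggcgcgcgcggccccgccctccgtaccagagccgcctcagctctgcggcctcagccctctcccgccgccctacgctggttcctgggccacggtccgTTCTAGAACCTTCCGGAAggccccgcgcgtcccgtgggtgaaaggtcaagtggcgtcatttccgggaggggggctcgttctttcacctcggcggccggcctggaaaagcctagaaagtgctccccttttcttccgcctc

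RefSeq windows were used for 6 of the 10 genes, in 9 windows. The patterns searched on both strands were a 2-unit element (GAANNTTC or TTCNNGAA) and a 3-unit element (GAANNTTCNNGAA or TTCNNGAANNTTC), and every 3-unit match contains 2-unit matches. Of the 6 genes, 5 held a 2-unit match (Hspe1, Hspd1, Hspa1a, Hspa1b and Hsph1) and 3 a 3-unit match (Hspe1, Hspd1 and Hsph1). Among the 32851 windows of the same length in the table, 15.1% held the 2-unit and 0.603% the 3-unit pattern. These shares are of windows, while the members were counted as genes. Nor are the members independent: the Hspe1 window and the Hspd1 window with the matches share 285 bases, and the windows of Hspa1a and Hspa1b differ at 4 bases. Of the other genes with a 3-unit window, 54 were tested. With age 1 of them was called higher and 0 lower, where 1.98% of tested genes with any window were called, with a median log2 fold change of -0.09, against -0.03 over the 10141 tested genes with any window. For resistant over sensitive cells 0 of the 54 were called, where 0.0394% of genes with any window were, with a median of -0.02, against -0.02 over genes with any window.

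Hspa9, the HSP70 of the mitochondrial matrix and motor of protein import, had values near 0 for both comparisons. It had 89.6, 221 and 208 CPM in old, 200.2, 189 and 211 CPM in resistant, 184, 195 and 199 CPM in sensitive, and 109.9, 186 and 188 CPM in young libraries. The libraries of 24 March were low, and the other 10 lay between 184 and 221 CPM. The log2 fold change was 0.10 ± 0.30 with age (edgeR adjusted p = 0.978) and 0.05 ± 0.30 between resistant and sensitive cells (0.99978), and with the date block 0.04 ± 0.11 (0.843) and 0.05 ± 0.11 (0.841). The span of Hspa9 also holds 2 other annotated genes, Gm22200 and Gm26109.

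Hsf1 showed the opposite split by date. It had 141, 71.4 and 81.9 CPM in old, 92.4, 92.4 and 85.8 CPM in resistant, 81.8, 92.3 and 78.7 CPM in sensitive, and 191, 84.2 and 82.2 CPM in young libraries. The libraries of 24 March were the highest, and the other 10 lay between 71.4 and 92.4 CPM. The log2 fold change was -0.28 ± 0.33 with age (edgeR adjusted p = 0.897) and 0.10 ± 0.33 between resistant and sensitive cells (0.99978), and with the date block -0.23 ± 0.10 (0.132) and 0.10 ± 0.10 (0.647). The age value turned to 0.27 without young replicate 1.

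**Figure D3:**
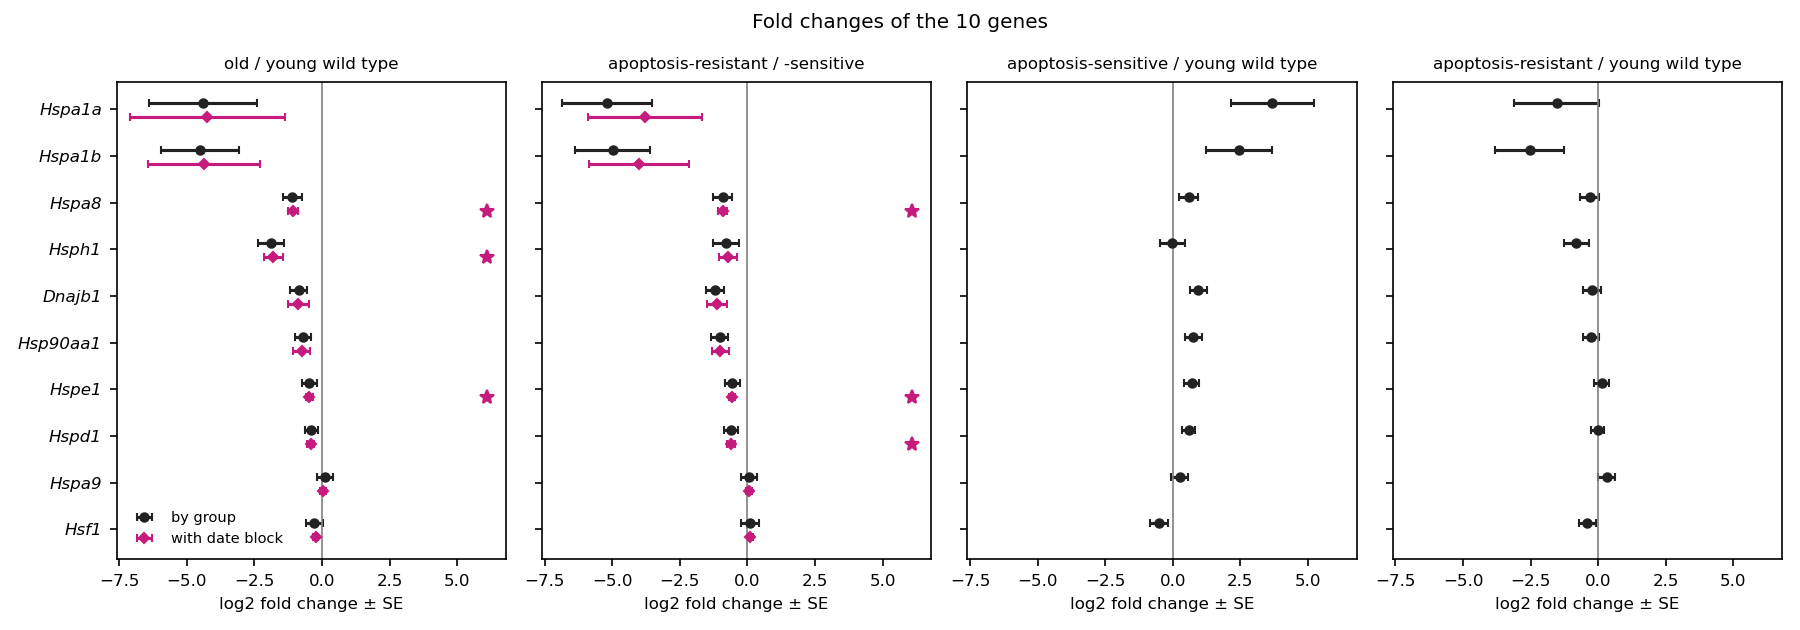
Log2 fold change ± SE of the 10 genes in 4 comparisons by edgeR, by group (black) and with the collection date as a block (magenta), the block being possible only where groups share dates. Stars mark adjusted p under 0.05 with the block: Hspa8, Hsph1 and Hspe1 with age, and Hspa8, Hspe1 and Hspd1 between resistant and sensitive cells; no value passed by group.

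Set against young wild-type cells, most of the 10 genes were higher by sign in sensitive cells and most were lower in resistant cells, with 0 calls in either comparison. These comparisons use the same young libraries as the age comparison and the same mutant libraries as each other, and collection date and genotype cannot be told apart in them. By sign 8 of the 10 were higher and 2 lower in sensitive than in young cells, where 51.2% of all genes were lower, with a median of 0.65 against -0.01 over all genes. None was called, and 0% of all genes were, while 5 were higher at an unadjusted p under 0.05, against 1.03% of all genes. These were Dnajb1 (0.95 ± 0.33), Hsp90aa1 (0.76 ± 0.30), Hspe1 (0.70 ± 0.28), Hspd1 (0.59 ± 0.25) and Hspa1a (3.67 ± 1.53), all with an edgeR adjusted p of 0.824. Hspe1, Hspd1 and Hsp90aa1 were higher in every sensitive library than in every young one, where 4.57% of all genes were. Without sensitive replicate 3 the values of Hspa1a and Hspa1b were 0.60 and 0.77, against 3.67 and 2.45 with it, and without young replicate 1 they were 5.75 and 3.51.

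In resistant against young cells the median of the 10 log2 fold changes was -0.29, against -0.02 over all genes, and 8 were below 0, where 52.5% of all genes were. No member was called (0 of 10), where 0.162% of all genes were, and 0 had an unadjusted p under 0.05, where 6.13% of all genes did. Hspd1 averaged 80.0 ± 0.94 CPM in resistant and 81.1 ± 22.0 CPM in young cells (-0.02 ± 0.25). Hspe1 averaged 31.1 ± 8.03 CPM in resistant and 28.3 ± 6.92 CPM in young cells (0.13 ± 0.28). Hspa9 was the 1 gene higher in all resistant than in all young libraries, where 6.64% of all genes were, at 0.31 ± 0.30 (edgeR adjusted p = 0.814). The age difference and the difference between resistant and sensitive cells, which share no library, were also tested against each other. Of the 10 genes 0 differed at the adjusted threshold, where 0.25% of all genes did, and 0 at an unadjusted p under 0.05, where 6.88% of all genes did.

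Per kilobase of exon the order of the 10 genes over the 12 libraries, by median level in CPM per kilobase, was Hspa8 (73.1), Hspa9 (62.9), Hspe1 (38.9), Hsf1 (37.6), Hspd1 (32.8), Hsp90aa1 (28.5), Dnajb1 (19.7), Hsph1 (19.6), Hspa1b (0.951) and Hspa1a (0.222). The ranges over libraries of all neighbours in this order overlapped. The highest library exceeded the lowest by 2.47 times for Hspa9, by 6.93 times for Dnajb1 and by 500.4 times for Hspa1b. The exon length is that of the union of exons in the GENCODE basic annotation, since the annotation used for counting is not given.

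Across the 12 libraries several cytosolic chaperones and the chaperonin varied together. The correlations are descriptions, since the libraries share groups, dates and depth. Pearson's r of log2 CPM was 0.98 for Hsp90aa1 and Dnajb1, 0.96 for Hspa1a and Hspa1b, 0.95 for Hspd1 and Hsp90aa1, and 0.94 for Hspd1 and Hspa8 (n = 12). After taking off group means these were 0.91, 0.97, 0.88 and 0.87, and without the libraries of 24 March 0.97, 0.95, 0.97 and 0.90 (n = 10). Hspa8 and Dnajb1 had an r of 0.85, and 0.50 after taking off group means. Hspe1 and Hspd1 had an r of 0.82, and 0.48 after taking off group means. Hsph1 and Hspe1 had an r of 0.26, and -0.64 after group means were taken off. Hspa9 and Hsf1 had the most negative value, -0.89, which was -0.46 without the libraries of 24 March.

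**Figure D4:**
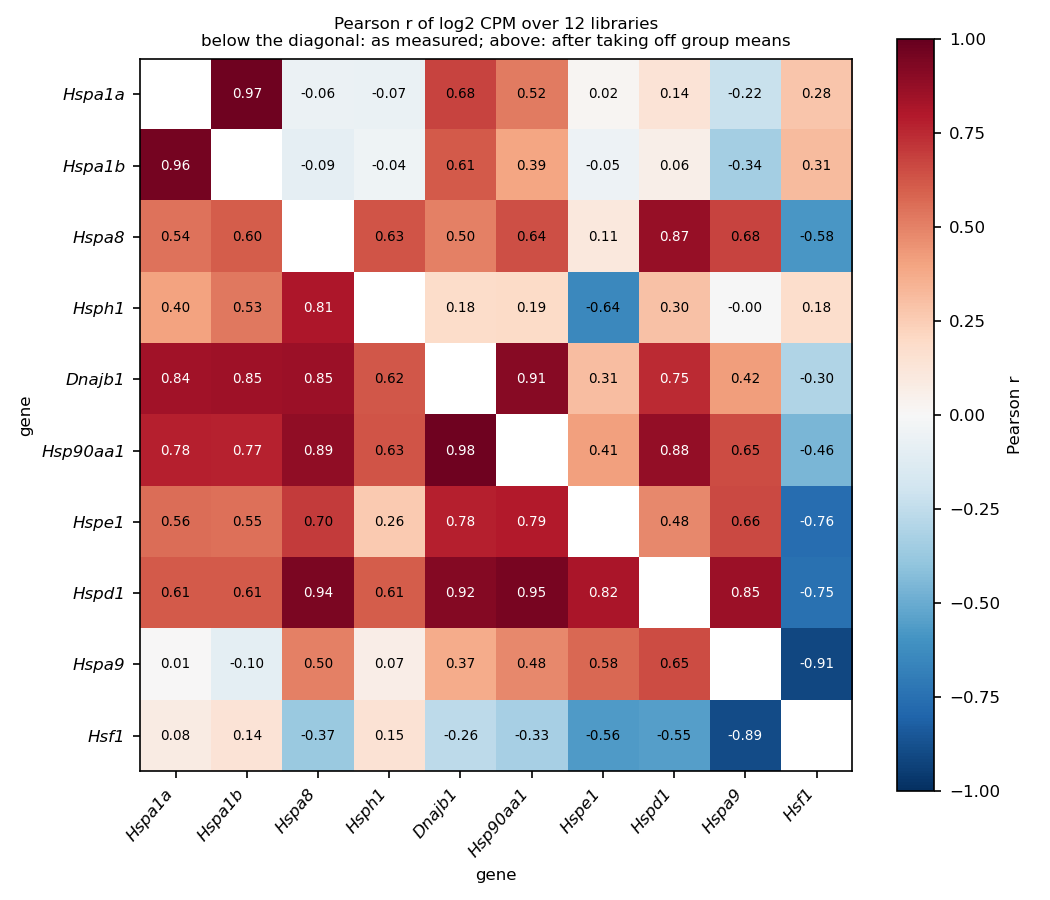
Pearson r of log2 CPM between the 10 genes over 12 libraries, as measured below the diagonal and after taking off group means above it. Hsp90aa1, Dnajb1, Hspd1 and Hspa8 form a block of r between 0.85 and 0.98 below the diagonal, and Hsf1 is negative to Hspa9 at -0.89. Above the diagonal the pairs of that block lie between 0.50 and 0.91.

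The genes most like a member across the 12 libraries were ranked by the same r, again as a description. For Hspa8 they were Fkbp4, an HSP90 immunophilin (0.96), Rangap1 (0.95), Trim8 (0.95), Tob2 (0.95) and Hspd1 (0.94). For Hsp90aa1 they were Dnajb1 (0.98), Mlf2 (0.95), Hspd1 (0.95), Tax1bp3 (0.94) and Pa2g4 (0.92). For Hspe1 they were Nop16, a nucleolar protein of ribosome assembly (0.96), Polr2g (0.96), Nxt1 (0.95), Ykt6 (0.94) and Eapp (0.94). For Hspa1b they were Hspa1a (0.96), Hyls1 (0.93), Ube2t (0.89), Tob1 (0.87) and Dnaja1, an HSP40 (0.87). The genes closest to Hsf1 were Ccdc163, Otud5, Skiv2l, Ciz1 and Stk25 with r between 0.98 and 0.99, and without the libraries of 24 March between 0.78 and 0.91.

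Related genes were described in 11 lists of 217 genes, of which 204 were tested: chaperones, cochaperones and heat shock factors, mitochondrial quality control and import, the proteasome, ribosome assembly and the immediate early genes. By group 1 of the 204 rose with age and 0 fell, where 2.01% of all genes were called, and 1 rose and 0 fell between resistant and sensitive cells, where 0.0441% were. The date block gave 5 higher and 10 lower with age, where it called 14.9% of all genes (7.89% higher and 7.03% lower), and 1 higher and 6 lower between resistant and sensitive cells, where it called 3.41% (1.43% higher and 1.97% lower). The age call by group was Dnaja4, a J-domain protein of the DNAJA class, with 5.09, 5.32 and 4.84 CPM in old against 0.822, 0.857 and 1.58 CPM in young libraries. Its groups did not overlap and its log2 fold change was 2.22 ± 0.47 (edgeR adjusted p = 0.0362), opposite in sign to Dnajb1. The other call was Atf5, a transcription factor of the mitochondrial unfolded protein response, with 24.0, 26.0 and 36.5 CPM in resistant against 10.1, 10.8 and 8.65 CPM in sensitive libraries (1.55 ± 0.22, 0.0449). Atf5 was also called in resistant against young cells, at 1.81 ± 0.23 (0.00743), where the young libraries had 7.64, 7.49 and 9.56 CPM. That list's other 18 genes, mitochondrial proteases and stress response genes, had 0 calls in any comparison, and the lowest p of the list with age were those of Atf5 (0.50 ± 0.22, 0.417) and Oma1, a protease of the inner membrane (-0.28 ± 0.17, 0.658).

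HSP90 relatives and cochaperones were mostly below 0 in both comparisons. Of the 20 genes 18 were below 0 with age, where 54.3% of all genes were, with a median of -0.22. Between resistant and sensitive cells 18 were below 0, where 52.7% of all genes were, with a median of -0.21. By group 0 passed in either comparison. The lowest p by group were those of Chordc1 (-0.75 ± 0.23, edgeR adjusted p = 0.148) and Fkbp4 (-0.88 ± 0.29, 0.195) with age, and of Stip1 (-0.56 ± 0.28) and Hsp90ab1 (-0.73 ± 0.37) between resistant and sensitive cells, both at 0.99978. With the date block 5 fell with age, where 7.03% of all genes fell: Fkbp4 (-0.89 ± 0.11, edgeR adjusted p = 0.000673), Chordc1 (-0.72 ± 0.11, 0.00248), St13 (-0.75 ± 0.15, 0.00948), Ahsa1 (-0.43 ± 0.10, 0.0130) and Stip1 (-0.74 ± 0.16, 0.0180). Ahsa1 stimulates the HSP90 ATPase, and Stip1 and St13 bridge HSP70 and HSP90. In resistant cells 3 fell relative to sensitive cells with the block, where 1.97% of all genes fell: Hsp90ab1 (-0.73 ± 0.13, 0.0110), Ahsa1 (-0.41 ± 0.09, 0.0372) and Fkbp4 (-0.46 ± 0.11, 0.0435). Hsp90ab1, the constitutive cytosolic HSP90, had 988, 918 and 1007 CPM in resistant against 1524, 1700.4 and 1593 CPM in sensitive libraries, with no overlap.

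Of 33 J-domain genes 19 were below 0 with age and 16 between resistant and sensitive cells, with medians of -0.04 and 0.01. Of all genes 54.3% and 52.7% were below 0. Dnaja1 had 65.2, 68.8 and 53.2 CPM in resistant against 182, 121 and 128 CPM in sensitive libraries, at -1.20 ± 0.31 (edgeR adjusted p = 0.324), and Dnajb4 was at -0.83 ± 0.26 (0.530), neither of which passed. Dnajc18 was the 1 of the 33 that fell with age under the block (-0.39 ± 0.11, 0.0333), where 7.03% of all genes fell. Among 19 HSP70 relatives, exchange factors and BAG cochaperones the age median was -0.04 and 0 passed by group. The block gave Bag3, the stress-inducible BAG cochaperone, as higher with age (1.77 ± 0.53, 0.0444), with 1.17, 4.30 and 2.80 CPM in old against 0.657, 0.514 and 1.19 CPM in young libraries, and Hspa12a as higher (0.62 ± 0.17, 0.0315). Under the block 7.89% of all genes rose with age. Hspa2 fell between resistant and sensitive cells with the block (-0.94 ± 0.21, 0.0316), where 1.97% of all genes fell. Grpel2, an exchange factor of mitochondrial HSP70, was at -0.34 ± 0.16 by group in the same comparison (0.99978).

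The 14 TRiC and prefoldin genes, the cytosolic chaperonin and its client-delivery complex, had medians of -0.14 with age and -0.23 between resistant and sensitive cells, with 0 calls by group. By group the lowest p were those of Pfdn6 (-0.36 ± 0.21, edgeR adjusted p = 0.616) and Cct3 with age, and of Tcp1 and Cct2 (-0.27 ± 0.18, 0.99978) between resistant and sensitive cells. With the block Cct3 fell with age (-0.38 ± 0.10, 0.0242), where 7.03% of all genes fell. Tcp1 (-0.37 ± 0.09, 0.0384) and Cct5 (-0.33 ± 0.08, 0.0424) fell with it in resistant cells, where 1.97% of all genes fell. Of 10 genes listed as small heat shock proteins 2 were tested, and 0 passed by either fit. Hspb11 was listed by its symbol, and its place in that family was not tested. With age Hspb11 was at -0.66 ± 0.51 (0.768) and Hspb6 at 0.05 ± 0.29 (0.993), and between resistant and sensitive cells they were at -0.41 ± 0.50 and 0.31 ± 0.29, both at 0.99978. Of 8 other heat shock factors and their binding proteins 4 were tested, and 0 passed by either fit. Hsf2 was at -0.39 ± 0.26 (0.701) and Hsf4 at 0.63 ± 0.43 (0.717) with age, and Hsbp1, which binds HSF1 trimers, was at -0.19 ± 0.20 and Hsf2 at -0.13 ± 0.26 between resistant and sensitive cells, both at 0.99978.

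All 31 proteasome genes were below 0 between resistant and sensitive cells, where 52.7% of all genes were, with a median of -0.16. In the resistant library 16 of the 31 were lower on all 3 dates, where 23.2% of all genes were, and 0 passed by either fit. The lowest p there were those of Psmd7 (-0.25 ± 0.19) and Psma7 (-0.23 ± 0.19), both with an edgeR adjusted p of 0.99978, and with age those of Psmd11 (-0.22 ± 0.15, 0.731) and Psmc6 (0.13 ± 0.14, 0.888). Mitochondrial import genes had medians of 0.07 with age and -0.08 between resistant and sensitive cells. Timm21, a subunit of the inner membrane translocase, rose with age under the block (0.34 ± 0.10, 0.0452), where 7.89% of all genes rose. By group it was at 0.35 ± 0.26 (0.760) and Timm50 at -0.21 ± 0.17 (0.793) with age, and Tomm40 (-0.22 ± 0.16) and Timm23 (0.36 ± 0.33) had the lowest p between resistant and sensitive cells, both at 0.99978. Ribosome assembly genes had medians of 0.03 with age and -0.15 between resistant and sensitive cells. Wdr43, a factor of small subunit assembly, rose with age under the block (0.29 ± 0.09, 0.0411), where 7.89% of all genes rose. By group it was at 0.29 ± 0.14 (0.490) and Wdr12 at -0.26 ± 0.18 (0.727) with age, and Nop16 (-0.45 ± 0.22) and Fbl (-0.48 ± 0.31) were at 0.99978 between resistant and sensitive cells.

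The immediate early list had medians of -0.50 with age and -1.12 between resistant and sensitive cells, the second -0.59 with the date block. By group 0 of its 23 genes passed. The second median includes sensitive replicate 3, where the list summed to 16880 CPM, against 3573 and 3700 CPM in sensitive replicates 1 and 2. In the resistant library 8 of the 23 were lower on all 3 dates, where 23.2% of all genes were, and 1 was higher on all 3. With the block 3 of the 23 fell with age, where 7.03% of all genes fell. They were Dusp2, a MAP kinase phosphatase (-1.06 ± 0.14, edgeR adjusted p = 0.00143), Btg2 (-0.51 ± 0.11, 0.0111) and Egr3 (-0.63 ± 0.17, 0.0333). Dusp2 had 219.7, 121 and 118 CPM in old against 624, 212 and 215 CPM in young libraries, highest on 24 March in both groups, and the groups overlapped. Between resistant and sensitive cells the lowest p were those of Myc (-1.12 ± 0.47, 0.952) and Atf3 (-2.78 ± 1.18, 0.967), and 0 passed by either fit.

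**Figure D5:**
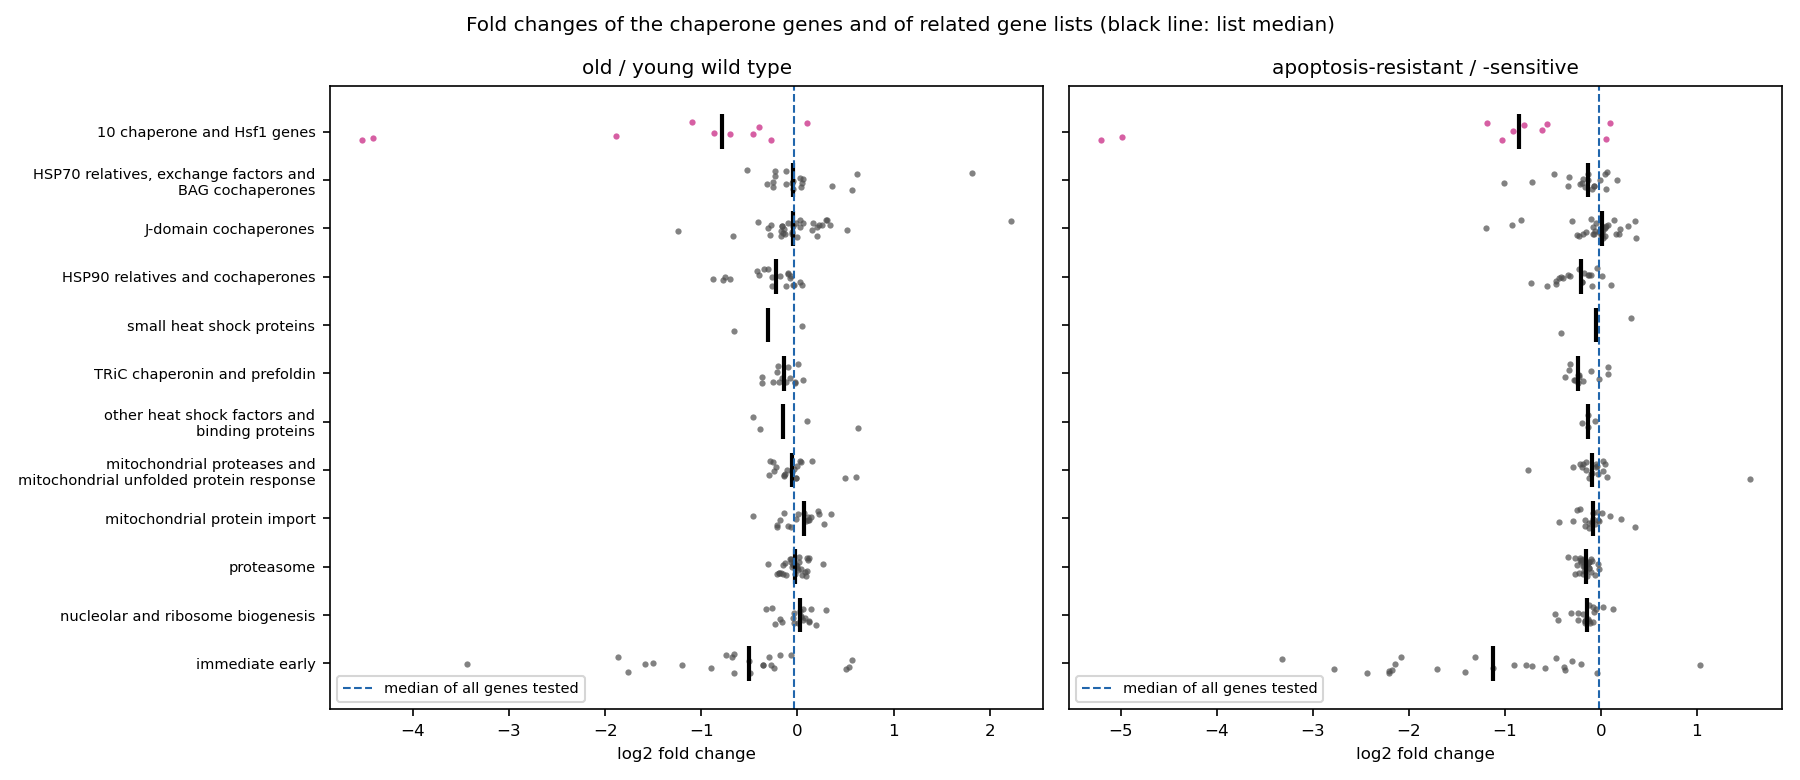
Log2 fold changes by group of the 10 members (magenta) and of 11 related lists (grey), old over young on the left and resistant over sensitive on the right; black bars are list medians and the dashed line the median of all genes tested. The member medians of -0.78 and -0.85 lie left of those of the other folding lists, and only the immediate early list has a median below that of the members, at -1.12 on the right. That list summed to 16880 CPM in sensitive replicate 3, against 3573 and 3700 CPM in sensitive replicates 1 and 2.

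Among the markers of other cells, 3 of the 11 T cell genes were called with age. In the lists of NK cells (5 genes), monocytes (11), plasmacytoid dendritic cells (5) and stromal cells (7), 1 gene each was called. Of all genes 2.01% were called with age, and the direction of these marker calls is not given here. The 7 bone marrow stromal genes summed to between 17.7 and 144 CPM in old and between 2.30 and 12.99 CPM in young libraries, and the 11 monocyte and macrophage genes to between 66.7 and 255 CPM in old and between 32.4 and 154 CPM in young libraries. The 11 T cell genes summed to between 52.2 and 87.3 CPM in old and between 38.8 and 78.4 CPM in young libraries. The NK cell genes summed to between 5.77 and 11.4 CPM in old and between 1.07 and 3.30 CPM in young libraries, and the plasmacytoid dendritic cell genes to between 278 and 363 CPM in old and between 215 and 257 CPM in young libraries. These 3 sums, stromal, NK and plasmacytoid dendritic, did not overlap between old and young libraries, whereas the T cell, monocyte, granulocyte, erythroid and plasma cell sums did. Between resistant and sensitive cells 0 genes of these marker lists were called, where 0.0441% of all genes were. The granulocyte sum was between 31.7 and 73.3 CPM in resistant and between 85.0 and 773 CPM in sensitive libraries, without overlap, and the stromal sum was between 3.30 and 9.17 CPM in resistant and between 2.95 and 11.6 CPM in sensitive libraries. Young replicate 1 had 4 of the 7 stromal markers at 0. The part of these cells in the chaperone values was not tested.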

How the data were processed

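RNA of sorted mature bone marrow B cells was measured in 4 groups of 3 libraries. Per the labels' protocols, a Qiagen kit and the Illumina TruSeq v2 kit were used on polyadenylated RNA. The authors deposited whole-number read counts per gene, made with Subread and featureCounts on mm10 per the submitters' processing notes. Versions, annotation and strand setting are not given in the sources used here. Symbols came from RefSeq for GRCm38.p6, which matched 25275 of 27179 Entrez numbers. Promoter windows are RefSeq's, on the same build.

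Genes were kept by filterByExpr (minimum count 10), which left 13592. All 12 libraries were fitted by group with edgeR 4.0.16 in R 4.3.3 (TMM, robust quasi-likelihood test, 8 residual degrees of freedom), with Benjamini-Hochberg adjustment over all genes tested and a threshold of 0.05. Adjusted p values are edgeR's unless DESeq2 is named. CPM use the TMM library sizes, and log2 CPM a prior count of 2. The columns not used numbered 0. DESeq2 1.42.0, other scaling, filtering and sample choices and the date block (4 residual degrees of freedom) were alternatives. The labels give same-numbered libraries 1 collection date, and their deviations from the group means correlated at 0.51 to 0.74 within the wild-type pairs and 0.28 to 0.49 within the Bak-deficient pairs. The year of the 24 March libraries reads 2006 in the labels, where the others read 2016.

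The members and lists were chosen with earlier results of these data known. All 10 members were named, and for the 2 main comparisons the called genes of each list (up to 4, by p) or otherwise the 2 of lowest p. In the other comparisons only called list genes were named. List genes called under the date block were added after their values were seen. Likeness was ranked for 5 members, with 5 genes each.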

Additional observations from a re-analysis of the deposited data

How the results depend on the processing

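Of 739 member values under 19 alternative settings, 708 kept their direction and their side of the threshold, 10 newly passed it and 21 changed direction. The members called with age were 0 by group, 2 with DESeq2, 3 with the date block (the replicate block that pairs same-numbered libraries) and 0 to 1 when single libraries were left out. Between resistant and sensitive cells they were 0 by group, 1 with DESeq2 and 3 with the block, and the block changed no other call. Comparisons of Bak-deficient with young wild-type cells share no date, so no block could be fitted there.

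Every change of direction was in a value that had not passed. In sensitive against young cells Hsph1 was 0.0122 with no filter and 0.175 without both libraries of 24 March, where Hsf1 was 0.0354. Over single libraries left out Hsph1 lay between -0.36 and 0.35 there, and Hsf1 between -0.72 and 0.042. In resistant against young cells Hspd1 was 0.00759 with no filter, and without the libraries of 24 March Hspe1 was -0.0292, Hspa1a 0.551 and Hsf1 0.137. Over single libraries left out Hspe1 lay there between -0.077 and 0.28, Hspd1 between -0.13 and 0.25, Hspa8 between -0.52 and 0.21, Hspa1a between -2.32 and 0.51 and Hsf1 between -0.62 and 0.14. With age Hspa9 lay between -0.11 and 0.41 and Hsf1 between -0.64 and 0.27. The cause was not tested.

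Counts over all genes moved more. With age 273 genes were called by group, 700 by DESeq2, 1 with only the 6 libraries compared, 2028 with the block and 75 to 267 when single libraries were left out. Between resistant and sensitive cells the counts were 6, 128 by DESeq2, 463 with the block, 11 with no filter, 31 without the libraries of 24 March and 0 to 13 over single libraries left out. In sensitive against young cells they were 0, 14 by DESeq2, 3 with no filter, 3 without the libraries of 24 March and 0 to 4. In resistant against young cells they were 22, 148 by DESeq2, 34 with no filter, 12 with only 6 libraries and 10 to 31. For the difference of the effects they were 34, 255 by DESeq2, 955 with the block, 75 without the libraries of 24 March and 2 to 37. Depth limits Hspa1a most, with 0 to 4 reads in the old libraries and young replicate 2.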
